A study of Homo sapiens with 18 samples.

Results

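Transcribed unprocessed pseudogenes are copies of genes that arose by duplication of the DNA, kept introns, no longer carry the full open reading frame of the parent gene and still give RNA. They were taken here as all genes with that biotype in the authors' deposited table of fenofibrate plus ezetimibe against DMSO, and there were 87 of them among 3508 listed genes. Of these 87 members, 9 were also listed with ezetimibe alone (472 genes) and 2 with fenofibrate alone (102 genes). The biotype and the coordinates come from the table, and the coordinates were equal to those of GENCODE release 29 for 87 of 87 members.

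The study holds 18 RNA-seq libraries of Cal51, an established line of human breast cancer cells. The comparisons use 12 of them, 3 per group, all from cells treated for 8 h: fenofibrate plus ezetimibe (here the combination), ezetimibe alone, fenofibrate alone, and DMSO, the solvent control of all 3. Fenofibrate, a fibrate given against high blood lipids, is an agonist of PPARα, and ezetimibe inhibits the sterol transporter NPC1L1. The labels give no dose and do not say that the 3 libraries of a group came from separate cultures, so p-values may measure technical spread alone. PKM2 knockout cells and their control make up the other 6 libraries, not used here.

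An unprocessed pseudogene often sits in a segmental duplication, near other copies of the same gene, and can have its own promoter or lie in the transcript of a neighbour. Its RNA is mostly not translated, and for some pseudogenes a role of the RNA itself has been described, as a decoy for microRNAs or as a regulator of the parent gene. Because a pseudogene and its parent share long stretches of sequence, short reads can be hard to assign to one of them.

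Each table is limited to genes that the authors called, past 1 in log2 fold change in either direction at an adjusted p under 0.05, so every member differed from DMSO by selection, and genes that did not pass are absent. The p-values below describe the same libraries that chose the members and are no independent evidence. Values are read counts normalised by 1 factor per library, written in the order of the replicate numbers. The combination and DMSO libraries held 2550718 to 3265200 reads in the listed genes. Each log2 fold change and its SE come from limma, fitted to log2 values after adding 1, and p-values were adjusted by Benjamini-Hochberg over the whole table, while folds are ratios of the means.

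The members were mostly higher with the combination. Of the 87, 79 were higher and 8 were lower, while among all 3508 listed genes, 2058 were higher (58.7%) and 1450 were lower (41.3%). limma called all 87 in the directions given, against 100% of the listed genes. These are bulk RNA samples, in which fewer cells of a kind and less RNA per cell cannot be told apart. The values of the combination and DMSO libraries did not overlap for 86 members (78 higher, 8 lower), against 99.0% of all listed genes (58.0% higher, 41.0% lower), and the exception was MRPS31P5, a copy of a mitochondrial ribosomal protein gene, with 7.67, 25 and 22 in combination libraries and 1.95, 4.59 and 8.54 in DMSO libraries. The median log2 fold change was 1.87 over the members and 1.16 over all listed genes. Other classes had similar medians: 1.96 for transcribed unitary pseudogenes, 1.89 for antisense RNAs and 1.77 for lincRNAs and for sense intronic RNAs. It was 1.63 for processed pseudogenes and 1.06 for protein-coding genes. At a mean under 50 the medians were 2.09 over the members and 2.00 over all listed genes. From 50 to under 500 they were 1.44 and 1.05, and at 500 and over 2.42 (3 members) and -1.06. The 79 higher members ran from 1.03 to 4.13 with a median of 1.95, and the 8 lower ones from -1.12 to -2.65 with a median of -1.56. Summed over the members, normalised counts came to 13767, 13801 and 13804 in combination libraries and to 4780, 4783 and 4643 in DMSO libraries. That was 0.492, 0.515 and 0.512% of the reads in listed genes with the combination and 0.157, 0.160 and 0.146% with DMSO.

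**Figure D1:**
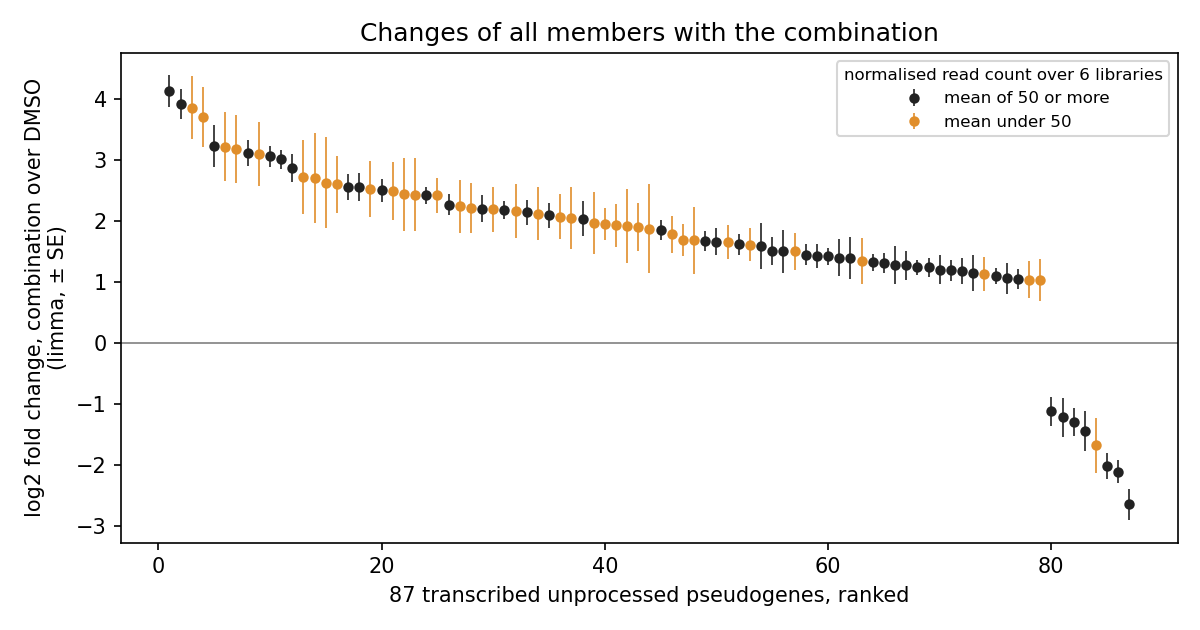
Log2 fold change of each of the 87 members, combination over DMSO (vertical axis, limma, bars ± SE), against its rank from the highest to the lowest (horizontal axis). Black points are members with a mean normalised read count of 50 or more over the 6 libraries and orange points those under 50. The 79 higher members run from 4.13 down to 1.03, and the 8 lower ones include 1 of the low members.

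The members had a median of 60.2 normalised reads over the 6 libraries, against 149.7 for all listed genes and 279 for the protein-coding ones, but 18.5 for processed pseudogenes, 20.2 for unprocessed pseudogenes without annotated transcription, 19.9 for lincRNAs and 20.6 for antisense RNAs. Among listed genes with a mean under 50, 37 of 38 members (97.4%) and 930 of 1205 genes (77.2%) were higher. Between 50 and 500 it was 39 of 46 members (84.8%) and 664 of 1223 genes (54.3%). At 500 and over, 3 of 3 members were higher, against 464 of 1080 genes (43.0%). Other pseudogene classes of the table were less one-sided in count: 28 of 40 unprocessed pseudogenes without annotated transcription (70.0%), 56 of 84 processed pseudogenes (66.7%) and 15 of 24 transcribed processed pseudogenes (62.5%) were higher. Among noncoding RNAs it was 31 of 36 processed transcripts (86.1%), the class nearest to the members' 90.8%, 139 of 177 antisense RNAs (78.5%) and 155 of 205 lincRNAs (75.6%), and among protein-coding genes 1489 of 2741 (54.3%). These shares are counts over listed genes and were not tested against each other.

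The scale of the comparison bears on all these values. The authors' factors put the listed genes at a median log2 fold change of 1.16. DESeq2's own size factors, computed over the listed genes alone, moved every log2 fold change by -0.81. Because every member was listed past 1 in log2 fold change, a shift of that size could not change a sign, and none changed. For the same reason the falls could only grow larger. On that scale the members' median was 1.07 against 0.36 for all listed genes. DESeq2 called 60 members (52 higher, 8 lower), against 80.5% of all listed genes (39.2% higher, 41.3% lower).

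MST1L had the highest log2 fold change in the limma fit. NMRAL2P passed it with a pseudocount of 5 (3.67 against 3.64) and LINC01881 without DMSO replicate 3 (4.50 against 4.16). By the ratio of means CES1P1 (20.7), ESPNP (20.6) and AC002059.2 (20.1) stood above MST1L (19.4), on 2, 2 and 1 DMSO reads. ZNF815P was level with MST1L at 19.4. MST1L is a copy of MST1, the gene of macrophage-stimulating protein, a secreted ligand of the receptor tyrosine kinase RON, and lies on chromosome 1 (ENSG00000186715, hg38, 16754910 to 16770237, minus strand), whereas MST1 is on chromosome 3. MST1L had 182, 155 and 144 normalised reads in combination libraries and 9.77, 6.43 and 8.54 in DMSO libraries. The groups are far apart, and the means of 160.1 ± 19.7 and 8.24 ± 1.69 (SD, n = 3 each) differ 19.4-fold (log2 4.13 ± 0.26, limma adjusted p = 2.93e-07). MST1 itself had 1176, 974 and 927 reads with the combination and 74.2, 124 and 61.9 with DMSO (log2 3.60 ± 0.23). Another copy, MST1P2, an unprocessed pseudogene that is not annotated as transcribed, had 759.6, 606 and 588 against 33.2, 67.9 and 36.3 (log2 3.86 ± 0.26). All 3 copies thus rose more than 10-fold. MST1L aligned to MST1 over 1595 bases with 97.8% identity and to MST1P2 over 1259 bases with 98.6%. Per base of gene length MST1L stood at 14.8, 15.2 and 14.9% of MST1 in combination libraries and at 12.6, 4.98 and 13.2% in DMSO libraries, and the log2 fold changes of pseudogene and parent differed by 0.53 ± 0.34. That difference was 0.09 without DMSO replicate 2 and 0.10 with a pseudocount of 5.

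The following 90 bases of the MST1 coding sequence and of the matching MST1L exon are each written 5′ to 3′ along their own transcript. They were chosen for the most differences among gap-free coding stretches of that length within a single exon of both genes. Only the best-scoring aligned block was searched, which starts at codon 413 of the 725 of MST1. Other such stretches within that block therefore differ at 5 positions or fewer. Capitals mark the 5 positions at which the copies differ here. MST1L is read from chr1:16757292-16757381 (minus strand) and MST1 from chr3:49684088-49684177 (minus strand) of GRCh38.
MST1L: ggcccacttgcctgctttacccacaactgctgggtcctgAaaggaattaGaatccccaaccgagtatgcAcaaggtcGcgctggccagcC
MST1: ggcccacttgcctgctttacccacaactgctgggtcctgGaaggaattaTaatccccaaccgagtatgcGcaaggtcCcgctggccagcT

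HSD17B7P2 is a copy of HSD17B7, the 3-ketosteroid reductase of the late steps of cholesterol synthesis, and was listed in all 3 tables. It lies on chromosome 10 (ENSG00000099251, 38356380 to 38378505, plus strand) and HSD17B7 on chromosome 1. HSD17B7P2 had 157, 131 and 110.1 reads in combination libraries and 15.6, 7.34 and 19.2 in DMSO libraries, which is 9.42-fold higher with no overlap (log2 3.23 ± 0.35, limma adjusted p = 7.81e-06). HSD17B7 had 191, 167 and 159 with the combination and 86, 85.4 and 81.1 with DMSO (log2 1.02 ± 0.17). The pseudogene therefore changed more than its parent, by 2.21 ± 0.33 on the log2 scale, and per base of gene length it stood at 261, 249 and 219.8% of HSD17B7 in combination libraries and at 57.7, 27.3 and 75.1% in DMSO libraries. HSD17B7P2 and HSD17B7 were 98.4% identical over 1033 aligned bases. An exon of HSD17B7P2 overlaps one of AL117339.5 on the same strand, which is annotated as protein-coding and also rose (log2 2.02 ± 0.55), so reads in the shared part cannot be told apart.

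Stretches of 90 coding bases were compared between HSD17B7 and this copy where they were gap-free and within a single exon of both genes. The one with the most differences has 2, again in capitals. Stretches across exon junctions were not considered. It is read from chr10:38358395-38358484 (plus strand) for HSD17B7P2 and chr1:162792742-162792831 (plus strand) for HSD17B7.
HSD17B7P2: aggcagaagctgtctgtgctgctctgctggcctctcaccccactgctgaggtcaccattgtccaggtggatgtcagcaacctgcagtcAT
HSD17B7: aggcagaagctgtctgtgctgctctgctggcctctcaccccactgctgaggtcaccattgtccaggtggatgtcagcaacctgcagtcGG

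Of the 87 members, 63 were given a parent gene, from symbols, descriptions or knowledge of the family and not from alignment. No alignment to the given parent was found for NMRAL2P, RHOXF1P1 and AC010186.2. For 15 of the 63 the parent was listed with the combination. These 15 members share 9 parents. In 10 pairs pseudogene and parent moved the same way (8 higher, 2 lower) and in 5 they moved in opposite directions, all 5 with GTF2I as the parent. All 6 of these pairs with at least 90% identity over 500 or more bases moved the same way, which holds for named parents and not for every close relative, as OR7E14P shows. The 6 are MST1L, HSD17B7P2, CATSPER2P1, WHAMMP2, CES1P1 and GTF2IP1 with their parents. The remaining parents are not listed, which does not show that they were unchanged.

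**Figure D2:**
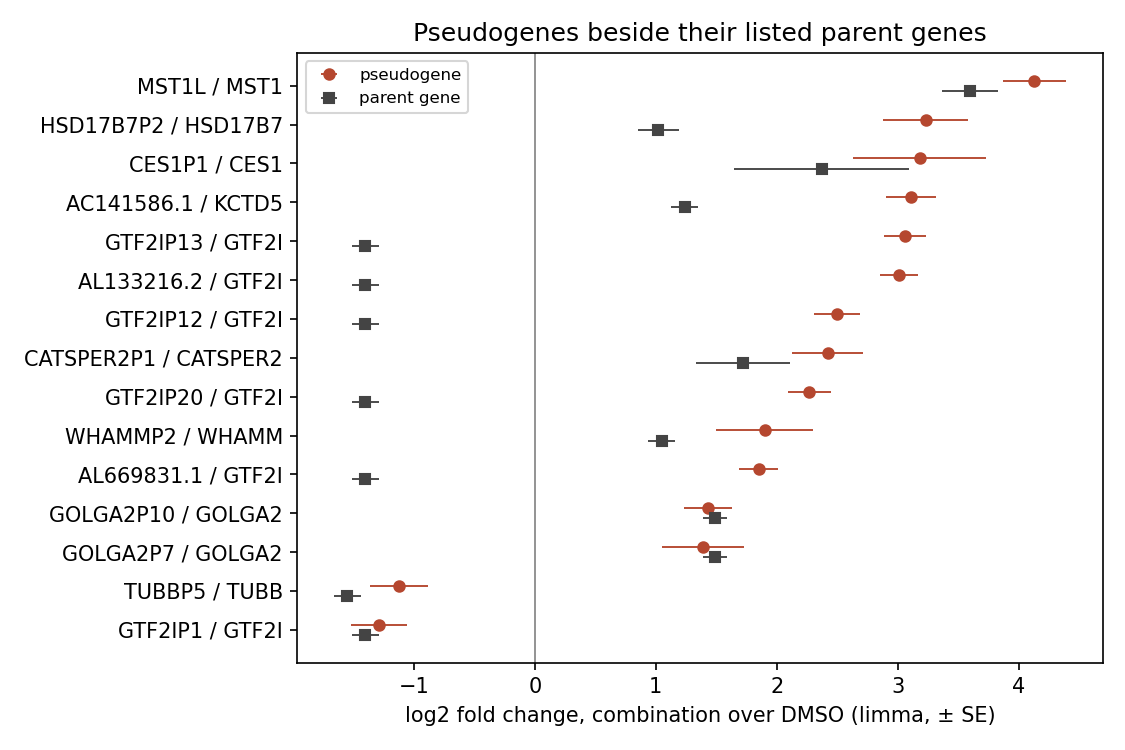
Log2 fold change, combination over DMSO (horizontal axis, limma, bars ± SE), of 15 pseudogenes (circles) and of the parent gene of each (squares), one pair per row. Pairs stand on the same side of 0 except for 5 rows, in which GTF2I is at -1.40 and its copies lie between 1.85 and 3.06.

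CATSPER2P1, on chromosome 15 (ENSG00000205771, 43726918 to 43747094, minus strand) as is its parent, is a copy of CATSPER2, which encodes a subunit of the sperm calcium channel. It had 59.2, 89 and 90 reads with the combination and 11.7, 12.9 and 17.1 with DMSO (log2 2.42 ± 0.29), and CATSPER2 had 53.7, 36.1 and 55.5 against 7.81, 22 and 14.9 (log2 1.72 ± 0.39). Both rose without overlap between the groups, and their changes differed by 0.71 ± 0.37. An exon of CATSPER2P1 overlaps one of PDIA3 on the opposite strand, and PDIA3 is not listed. Whether reads were counted by strand is not given, and a part of PDIA3 in the reads of CATSPER2P1 was not tested. Identity was 96.5% over 1588 bases. A 90-base stretch of their coding part was chosen in the same way, for the most differences. It is read from chr15:43732213-43732302 (minus strand) for CATSPER2P1 and chr15:43635737-43635826 (minus strand) for CATSPER2. This stretch has 8 differences, in capitals, and is shown beside the 2 of HSD17B7P2.
CATSPER2P1: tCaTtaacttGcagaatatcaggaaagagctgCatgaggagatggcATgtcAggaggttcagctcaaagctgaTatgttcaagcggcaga
CATSPER2: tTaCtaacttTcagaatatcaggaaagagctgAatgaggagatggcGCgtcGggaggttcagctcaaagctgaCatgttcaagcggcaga

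CES1P1 is a copy of CES1, the liver carboxylesterase that hydrolyses esters and many drugs, and lies beside it on chromosome 16. It had 16.4, 14.8 and 6.7 reads in combination libraries and 0, 1.84 and 0 in DMSO libraries. Only 2 DMSO reads stand behind the ratio of 19.1 from summed reads, whose 95% exact interval for counting error runs from 4.93 to 163. CES1 was as low, with 13.2, 22.2 and 3.83 against 0, 4.59 and 1.07 (log2 2.37 ± 0.72). WHAMMP2, a copy of WHAMM, which activates the Arp2/3 complex on membranes, had 17.5, 25 and 35.4 against 3.91, 8.26 and 6.4 (log2 1.90 ± 0.40), and WHAMM rose by 1.05 ± 0.11.

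AC141586.1 is annotated as a copy of KCTD5, an adaptor of the cullin 3 ubiquitin ligase, near which it lies on chromosome 16 (ENSG00000215154, 2603350 to 2630494, plus strand). It had 419, 537 and 461 reads with the combination and 41, 70.7 and 52.3 with DMSO, 8.63-fold higher (log2 3.11 ± 0.21, limma adjusted p = 4.23e-07). KCTD5 rose by 1.24 ± 0.11, so that the pseudogene changed by 1.87 ± 0.28 more. The gene overlaps PDPK2P, a copy of the kinase gene PDPK1 on the opposite strand, which had 185, 192 and 207 against 52.7, 42.2 and 32 (log2 2.20 ± 0.22). The spans overlap but no exon of AC141586.1 overlaps an exon of another gene. PDPK2P matches PDPK1, which is not listed, at 99.9% over 2387 bases, so the split of reads between them is uncertain.

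GOLGA2P10 and GOLGA2P7, on chromosome 15, derive from GOLGA2, the golgin GM130 of the cis-Golgi. GOLGA2P10 had 434, 419 and 424 reads with the combination and 134, 221 and 131 with DMSO (log2 1.43 ± 0.20). GOLGA2P7 had 75.6, 164 and 73.7 against 36.1, 47.7 and 27.8 (log2 1.39 ± 0.34), and was no longer called on DESeq2's scale (log2 0.68, DESeq2 adjusted p = 0.0668). GOLGA2 itself changed by 1.49 ± 0.10, and the copies differed from it by -0.06 ± 0.27 and -0.10 ± 0.32, less than 1 SE in either case. TUBBP5, a beta-tubulin copy, fell, as did its named parent: it had 43.8, 34.3 and 37.3 against 89.9, 98.2 and 68.3 (log2 -1.12 ± 0.24), and TUBB fell by 1.55 ± 0.11 on the log2 scale. TUBBP5 was closer in sequence to TUBB8 (96.3% over 1499 bases) than to TUBB (80.9% over 1279 bases), and TUBB8 is not listed. Of the 5 listed relatives of TUBBP5 at 79.8 to 87.4% identity, TUBB, TUBB4B and TUBBP1 were lower, while TUBB2B (82.1%, log2 1.38 ± 0.26) and TUBB3 (81.0%, log2 1.91 ± 0.46) were higher.

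Copies of GTF2I, the gene of the transcription factor TFII-I on chromosome 7, split into 2 sets that moved in opposite directions. GTF2I had 527, 601 and 579 reads in combination libraries and 1440, 1454 and 1632 in DMSO libraries (log2 -1.40 ± 0.11). GTF2IP1, which matches it at 99.8% over 3205 bases, had 101, 188 and 124 against 393, 312 and 283 (log2 -1.29 ± 0.23). GTF2IP4, annotated as a processed copy, had 132, 191 and 162 against 548, 482 and 560.4 (log2 -1.72 ± 0.16). GTF2IP1 and GTF2IP4 matched each other at 99.8% over 3609 bases, so the split of reads between these 3 genes is uncertain, and the log2 changes of GTF2IP1 and GTF2I differed by 0.12 ± 0.29.

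GTF2IP12, GTF2IP13, GTF2IP20, AL133216.2 and AL669831.1 are also named or described as copies of GTF2I. Their best-scoring single aligned block with it held 145 to 365 bases at 84.1 to 88.1% identity, and further blocks were not added up. These copies all rose. GTF2IP13, on chromosome 7 (ENSG00000272556, 45769105 to 45815263, plus strand), had 948, 878 and 844 with the combination and 82, 114 and 126 with DMSO, 8.3-fold higher (log2 3.06 ± 0.17, limma adjusted p = 1.35e-07). AL133216.2, on chromosome 10 (ENSG00000276805, 38403189 to 38452153, plus strand), had 981, 867 and 868 against 138, 92.7 and 108, 8.03-fold higher (log2 3.01 ± 0.16, limma adjusted p = 1.11e-07). Set against GTF2I per base of gene length, AL133216.2 stood at 269, 209 and 217% in combination libraries and at 13.8, 9.23 and 9.56% in DMSO libraries. The difference in log2 change from GTF2I ran from 3.25 ± 0.25 for AL669831.1 to 4.47 ± 0.26 for GTF2IP13.

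The sequences below come from a single coding exon of GTF2I and its copies and show the 2 sets side by side. The stretch was chosen for the most variable positions among gap-free stretches that align in these copies and in LINC01347. Capitals mark each base that differs from GTF2I. On GRCh38 they lie at chr7:74732481-74732570 (plus strand, GTF2I), chr7:75213498-75213587 (minus strand, GTF2IP1), chr10:38416684-38416773 (plus strand, AL133216.2), chr4:119440963-119441052 (minus strand, GTF2IP12) and chr1:223983194-223983283 (minus strand, GTF2IP20).
GTF2I: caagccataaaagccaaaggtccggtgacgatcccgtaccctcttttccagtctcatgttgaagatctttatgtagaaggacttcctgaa
GTF2IP1: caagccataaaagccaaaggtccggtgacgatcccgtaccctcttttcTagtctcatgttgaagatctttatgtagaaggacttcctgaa
AL133216.2: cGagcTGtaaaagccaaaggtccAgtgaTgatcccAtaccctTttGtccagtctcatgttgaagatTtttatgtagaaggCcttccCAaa
GTF2IP12: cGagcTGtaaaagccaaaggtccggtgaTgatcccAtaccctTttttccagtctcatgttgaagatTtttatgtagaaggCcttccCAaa
GTF2IP20: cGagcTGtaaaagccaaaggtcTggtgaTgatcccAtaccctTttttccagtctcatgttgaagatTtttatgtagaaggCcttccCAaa

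GTF2IP1 differs from GTF2I at 1 base of this stretch, in the codon that is the first stop of the aligned stretch (codon 391 of the 998 of GTF2I). The copies that rose differ at 12 bases (AL133216.2), 10 bases (GTF2IP12) and 11 bases (GTF2IP20).

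The copies of GTF2I that rose belong to a larger set of related transcripts. When the transcripts of all 87 members were aligned with each other and joined at 95% identity over at least 500 bases, 24 members fell into 8 families. The largest held 9: GTF2IP12, GTF2IP13, GTF2IP20, AL133216.2, AL669831.1, AC110079.1, LINC01347, FAM157A and FAM157B, spread over 6 chromosomes. All 9 were higher, with log2 fold changes from 1.34 to 3.06 and a median of 2.27, and their summed counts were 4186, 4001 and 3908 with the combination against 643, 634 and 782 with DMSO. AC110079.1, the most abundant of them, had 963, 944 and 964 against 151, 173 and 215 (log2 2.42 ± 0.14). LINC01347 and FAM157B were low, with 14.2, 14.8 and 22 against 1.95, 1.84 and 5.34 for LINC01347 and 25.2, 6.49 and 3.83 against 0.977, 1.84 and 2.13 for FAM157B. A further 7 listed genes of other biotypes matched a member of the family at 95% or more over 500 bases, and all 7 were higher (log2 1.14 to 2.31). Reads that fit several of these loci may have been placed at any of them or left out, since no source used here gives how such reads were handled, so the 9 members are not 9 separate observations.

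**Figure D3:**
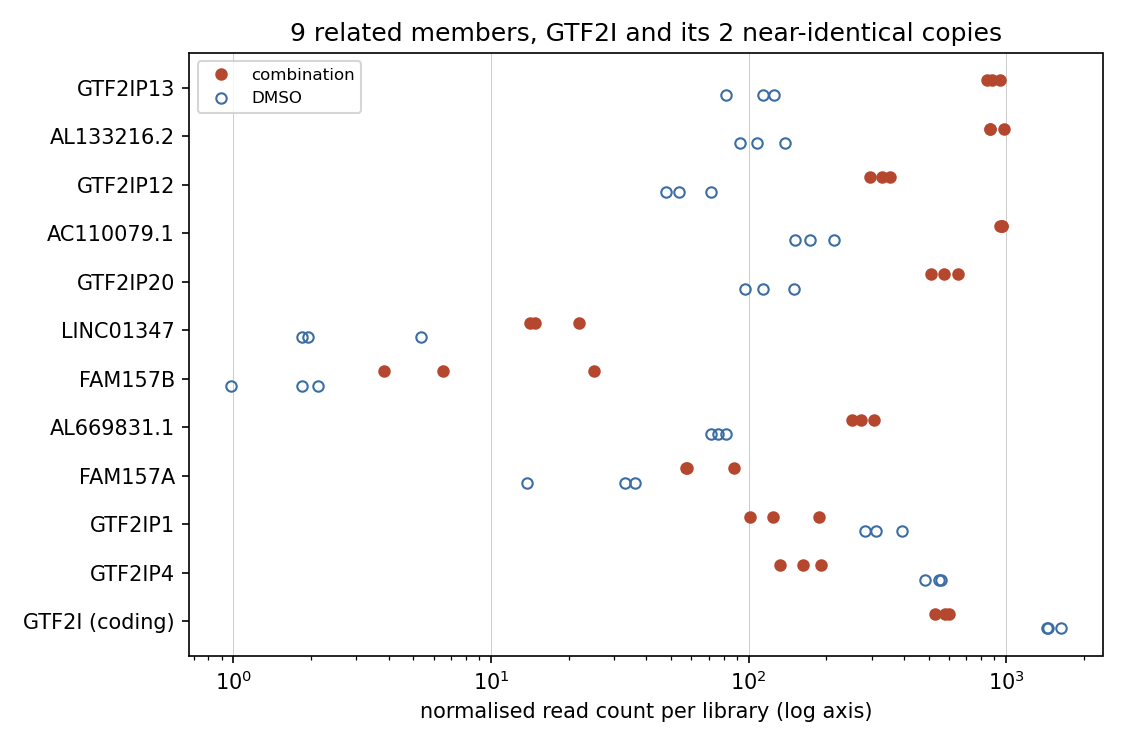
Normalised read count of each library (horizontal log axis) for the 9 related members, for the copies GTF2IP1 and GTF2IP4, and for GTF2I. Filled circles are the 3 combination libraries and open circles the 3 DMSO libraries. The combination is to the right of DMSO in the upper 9 rows and to the left of it in the lower 3.

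Both GTF2IP13 and GTF2IP20 face a SEPT7 copy across a short gap. GTF2IP13 is 120 bases from SEPT7P2 on chromosome 7 and GTF2IP20 is 149 bases from AC138393.1 on chromosome 1, in each case with the genes on opposite strands and running apart. SEPT7 encodes a septin, a filament-forming GTPase of the cytoskeleton. SEPT7P2 had 303, 287 and 249 reads with the combination and 122, 98.2 and 86.5 with DMSO (log2 1.45 ± 0.18), and AC138393.1 had 179, 169.6 and 150.3 against 36.1, 42.2 and 36.3 (log2 2.09 ± 0.20). The SEPT7 copies were 97.0% identical to each other.

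All other families were also higher throughout. FAR2P1, FAR2P2 and FAR2P4, copies of a fatty acyl-CoA reductase gene, had log2 fold changes from 2.12 to 2.22, and CCT6P1 and CCT6P3, copies of a chaperonin subunit gene, had 1.62 and 1.61. CSPG4P10 and CSPG4P12 matched each other at 99.8% and had 1.24 and 1.59. The 5 members named after FAM86, copies of EEF2KMT, a methyltransferase for elongation factor 2, ran from 1.05 ± 0.16 (FAM86JP) to 2.18 ± 0.15 (FAM86B3P). FAM86B3P had 339.8, 337 and 348 with the combination and 76.2, 76.2 and 71.5 with DMSO. EEF2KMT is not listed, while the related coding genes FAM86B1 and FAM86B2 rose by 1.49 ± 0.33 and 2.00 ± 0.25.

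Several of the largest rises have no listed parent. NMRAL2P derives from the family of NMRAL1, a redox sensor protein that binds NADPH, and the pseudogene has been described as a target of the oxidative stress factor NRF2 in human colon cancer cells. It lies on chromosome 3 (ENSG00000171658) and had 300.3, 283 and 329 reads in combination libraries and 20.5, 13.8 and 24.5 in DMSO libraries, 15.5-fold higher (log2 3.92 ± 0.24, limma adjusted p = 2.48e-07). No other gene overlaps it. RRN3P1, a copy of the gene of RRN3, which starts transcription by RNA polymerase I, had 439.5, 463 and 492 against 86.9, 53.2 and 104 (log2 2.55 ± 0.23). RRN3P1 matches RRN3 at 98.4% over 860 bases, and RRN3 is not listed.

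AL390719.1, on chromosome 1, had 207, 176 and 197 with the combination and 30.3, 28.5 and 19.2 with DMSO (log2 2.87 ± 0.23), and an exon of it overlaps one of the lincRNA AL645608.8 on the opposite strand, which also rose (log2 4.09 ± 0.52); the sources used here do not say whether reads were counted by strand. AC016582.3, on chromosome 19, had 207, 229.8 and 201 against 44, 33.1 and 29.9 (log2 2.56 ± 0.21). LINC01881, on chromosome 2, had 37.3, 41.7 and 51.7 against 0.977, 0.918 and 6.4 (log2 3.86 ± 0.52), with 1 DMSO library well above the other 2; its log2 fold change was 4.50 without that library, DMSO replicate 3, and 2.71 with a pseudocount of 5. LINC01881 shares an exon part with SEPT14P2 on the same strand. In all 3 the lowest combination library was at least 4 times the highest DMSO library.

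**Figure D4:**
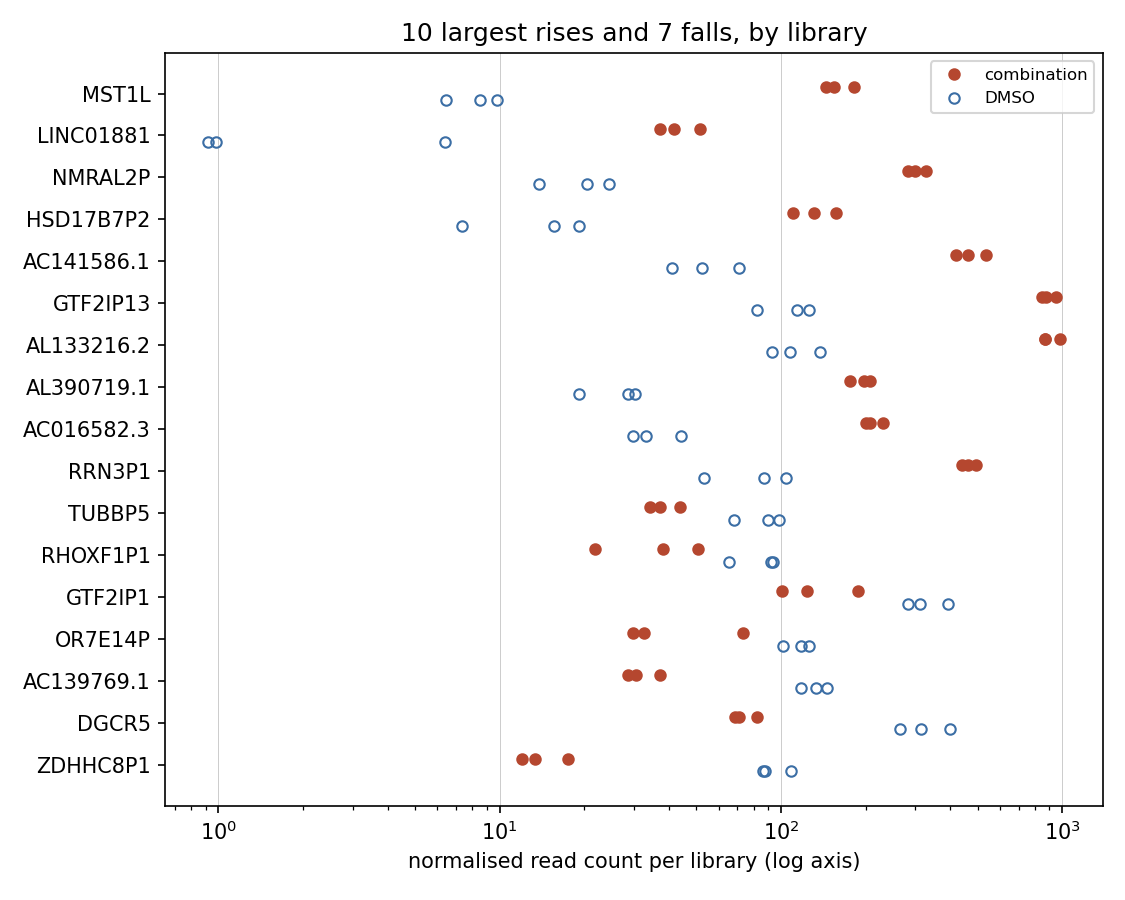
Normalised read count of each library (horizontal log axis) for the 10 members with the largest rises and the 7 falls, taken from members that average 20 or more and whose groups do not overlap. Filled circles are combination libraries and open circles DMSO libraries. RHOXF1P1 and OR7E14P come nearest to an overlap, and MST1L and NMRAL2P show the widest gaps between the groups.

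Among the 8 members that fell, the largest change was that of ZDHHC8P1, on chromosome 22 (ENSG00000133519, 23390606 to 23402726, minus strand). It is a copy of ZDHHC8, a palmitoyltransferase gene, with 90.9% identity over 1408 bases, and ZDHHC8 is not listed. ZDHHC8P1 had 17.5, 12 and 13.4 reads with the combination and 109, 86.3 and 87.5 with DMSO (log2 -2.65 ± 0.26, limma adjusted p = 4.84e-06). The unprocessed pseudogene AP000344.2 overlaps an exon of it on the opposite strand and had 1.1, 0 and 0 against 21.5, 15.6 and 17.1. DGCR5, a noncoding RNA gene of the DiGeorge syndrome region of chromosome 22, had 82.2, 68.6 and 70.9 against 314, 398 and 264 (log2 -2.11 ± 0.19). DGCR9, which shares an exon part with DGCR5 on the same strand at 100% identity over 550 bases, was lower as well (log2 -2.14 ± 0.59).

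AC139769.1 is a zinc finger copy in the cluster of such genes on chromosome 19, with 28.5, 37.1 and 30.6 reads in combination libraries and 146, 118 and 133 in DMSO libraries (log2 -2.02 ± 0.22). Of the 8 listed genes that match it at 75% or more over 500 bases, 7 were lower and 1, ZNF506, was higher. OR7E14P, an olfactory receptor copy on chromosome 11, had 73.4, 29.7 and 32.6 against 102, 118 and 126 (log2 -1.45 ± 0.33). Its 2 closest listed relatives were both higher, OR7E38P (93.4% over 967 bases, log2 2.58 ± 0.67) and AC004967.2 (93.7% over 603 bases, log2 2.23 ± 0.34). These relatives overlap each other on the minus strand of chromosome 7, so they are not 2 separate observations. OR7E38P was also low, with 30.7, 10.2 and 9.58 against 0, 4.59 and 2.13. OR7E14P overlaps an exon of PLEKHA7, a gene of adherens junctions on the opposite strand with 1014, 1090 and 1036 reads against 2557, 2331 and 2191. A part of the reads of OR7E14P may thus come from PLEKHA7, and that part was not tested. RHOXF1P1, a copy of a homeobox gene on chromosome X, had 21.9, 38 and 50.8 against 93.8, 65.2 and 91.8 (log2 -1.22 ± 0.32). ANKRD20A19P, the only lower member with a mean under 50, had 3.29, 12 and 8.62 against 26.4, 19.3 and 31 (log2 -1.68 ± 0.45). With GTF2IP1 and TUBBP5 these make up the 8.

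Neighbours limit how far single members can be read. For 50 of the 87 members (57.5%) another listed gene lies within 50 kb, against 1528 of 3507 listed genes (43.6%). In 20 of these 50 the nearest listed gene overlaps the member, 14 on the opposite strand and 6 on the same strand, and in all 20, which form 17 distinct pairs, it moved in the member's direction, against 85.4% of the 439 such cases over all listed genes. In the 30 without overlap (27 distinct pairs), 24 moved in the same direction (80.0%) and 6 did not, against 71.6% of 1089 over all listed genes. An exon of 51 members overlaps an exon of some other annotated gene, 39 members match another gene at 98% or more over 500 bases, and 15 overlap no other gene at all. Of those 15, 14 were higher and 1 was lower, and of the 48 that match no other gene at 98%, 42 were higher and 6 lower.

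Some members were nearly silent without the drugs. NXF4, AC211486.1 and OR7E19P had 0 reads in all 3 DMSO libraries and 27, 16 and 15 reads over the combination libraries. On a floor of 3 reads over the DMSO group they were at least 8.76-fold (NXF4), 5.49-fold (AC211486.1) and 5.03-fold (OR7E19P) higher. ESPNP, a copy of the gene of the actin-bundling protein espin near MST1L, had 40 reads with the combination and 2 with DMSO, a ratio of 20.1 with a 95% exact interval from 5.21 to 172. ZNF815P, a zinc finger copy, had 27.4, 24.1 and 27.8 against 1.95, 0 and 2.13 (log2 3.70 ± 0.49). The intervals and floors cover counting error only.

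The single-drug tables are smaller, and the biotype made up 11 of 472 listed genes with ezetimibe, 2 of 102 with fenofibrate and 87 of 3508 with the combination. Of the members, 9 passed the authors' thresholds with ezetimibe alone, 8 higher and 1 lower. There limma called 77.5% of the 472 listed genes higher and 22.2% lower (76.3% higher and 22% lower with no overlap between groups). With fenofibrate alone it was 2 members, both higher, where limma called 91.2% of the 102 listed genes higher and 8.82% lower (90.2% higher and 7.84% lower with no overlap). Each treated group is set against the same 3 DMSO libraries, and the tables were normalised separately, so the values of each are given side by side and not tested against each other. MST1L had 182, 155 and 144 reads with the combination, 74.2, 85.6 and 96.9 with ezetimibe, and 9.8, 6.45 and 8.55 in the DMSO libraries of the ezetimibe table. Its rise with ezetimibe was 10.4-fold (log2 3.23 ± 0.27, limma adjusted p = 2.82e-07), and MST1 rose with ezetimibe too, with 347, 444 and 430.4 against 74.5, 124 and 62 (log2 2.27 ± 0.22). Neither MST1L nor MST1 is listed with fenofibrate.

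AL133216.2 and HSD17B7P2, which lie 24684 bases apart on the same strand of chromosome 10, are the 2 members listed in all 3 tables. AL133216.2 had 247, 251 and 251 reads with ezetimibe against 138, 93 and 108 with DMSO (log2 1.16 ± 0.16), and 241, 268 and 185 with fenofibrate against 134, 90.1 and 105 (log2 1.07 ± 0.20). HSD17B7P2 had 28.9, 39.2 and 39 with ezetimibe against 15.7, 7.37 and 19.2 (log2 1.36 ± 0.36), and 41.5, 67 and 49.1 with fenofibrate against 15.3, 7.14 and 18.8 (log2 1.93 ± 0.43). In both, no treated library was as low as any DMSO library. HSD17B7 was listed with fenofibrate, at 213, 258 and 213 against 83.9, 83 and 79.2 (log2 1.46 ± 0.14), and not with ezetimibe.

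NMRAL2P had 55.7, 40.2 and 36.1 reads with ezetimibe and 20.6, 13.8 and 24.6 with DMSO (log2 1.14 ± 0.30), and CATSPER2P1 had 52.6, 41.3 and 32.3 against 11.8, 12.9 and 17.1 (log2 1.52 ± 0.30). AL390719.1, GTF2IP12 and FAM86FP rose with ezetimibe by 1.70 ± 0.23, 1.04 ± 0.20 and 1.30 ± 0.27 on the log2 scale. ZDHHC8P1 was the 1 member that fell, with 45.4, 48.5 and 43.7 against 109.7, 86.6 and 87.6 (log2 -1.02 ± 0.18). With the combination the 8 of these members that rose had log2 changes from 2.04 ± 0.28 (FAM86FP) to 4.13 ± 0.26 (MST1L) on the authors' scale, and 1.27 (FAM86FP) to 3.48 (MST1L) on that of DESeq2's size factors. AC139795.1 and PPIEL carry the same biotype in the ezetimibe table and are not listed with the combination.

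**Figure D5:**
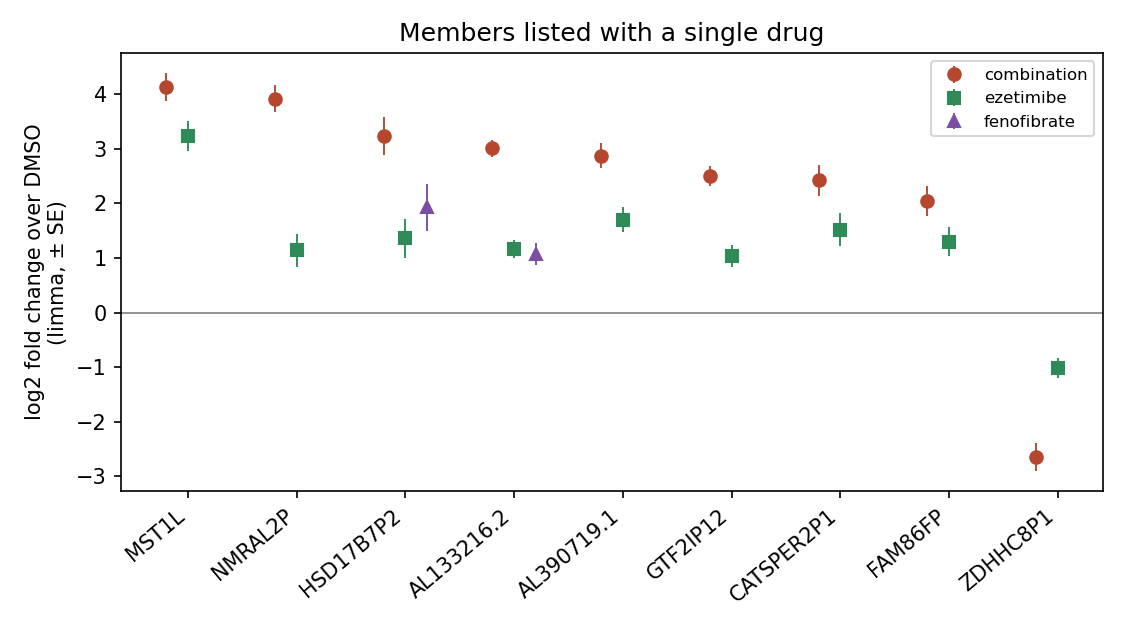
Log2 fold change over DMSO (vertical axis, limma, bars ± SE) of the 9 members listed with a single drug, for the combination (circles), ezetimibe (squares) and fenofibrate (triangles, AL133216.2 and HSD17B7P2 only). Each point comes from its own table with the same 3 DMSO libraries. ZDHHC8P1 is the only member below 0.

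Genes that act on noncoding transcripts were looked up beside the members. Nonsense-mediated decay removes many RNAs that carry early stop codons, among them transcribed pseudogenes. Of 22 genes of that pathway 1 was listed with the combination, NBAS, with 1257, 1271 and 1242 reads against 609, 598 and 670.3 (log2 1.01 ± 0.10). Of 17 host genes of snoRNAs, several of which are known substrates of that decay, 12 were listed and all 12 were higher. Among all listed genes 58.7% were higher, and among processed transcripts, the class of several of these hosts, 86.1%. The table annotates 1 of the hosts, C6orf48, as protein-coding. Examples of the hosts were GAS5 (log2 2.24 ± 0.12) and ZFAS1 (log2 2.31 ± 0.19). Of 10 epithelial and breast cancer markers GATA3 and KRT7 were listed, both higher (log2 2.07 ± 0.30 and 3.19 ± 0.47). Both were low, with summed counts of 141, 145 and 142 with the combination and 20.5, 39.5 and 26.7 with DMSO. No gene of 3 endothelial and 4 immune markers was listed, and of 4 fibroblast markers COL1A1 and PDGFRB were, both lower (summed 687, 609.7 and 632 with the combination and 2105, 2299 and 1937 with DMSO). Since unlisted genes have no values here, the cell type label could not be checked further, and a part of these genes in the members' changes was not tested.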

How the data were processed

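Per the submitters' processing notes, the tools were featureCounts 1.5.0-p3, HISAT2 2.0.5 and fastp, on hg38. Strand and multi-mapping settings are not given in the sources used here. The 3 deposited tables hold, per the file headers, normalised signal for 3 treated and 3 DMSO libraries, log2 fold changes, p-values and annotation. Of the deposited signal values for the combination, 100% divided to whole reads (within 0.001) by 1 factor per library. The authors' deposited log2 fold changes and p-values served only to describe how genes were listed; changes were computed from the libraries.

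Each table was fitted with limma 3.58.1 (trend, R 4.3.3) to log2 values after adding 1, with p-values (2-sided) adjusted over the table and a threshold of 0.05. Scripts were tested on simulated data. Parents came from symbols, the table's descriptions and knowledge of the families. Transcripts of GENCODE 29 were aligned with BLAST 2.17.0, and the aligned length and identity of a gene pair are those of its best-scoring single block. Named members were the 10 largest rises and falls (7 falls qualified) averaging 20 or more without overlap, those in a single-drug table, and those with a listed parent, 26 in all; other members named were chosen after their values were seen. Pair differences are limma fits of the log2 ratio, without a test. Alternatives were edgeR 4.0.16, DESeq2 1.42.0, pseudocounts, filters, left-out libraries and a replicate block. The members and the gene lists were chosen with earlier results of these data known.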

Additional observations from a re-analysis of the deposited data

How the results depend on the processing

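Leaving out each library in turn gave 84 to 87 members called with the combination, of which 76 to 79 higher and 8 lower in each case, and left 9 with ezetimibe and 2 with fenofibrate. Pseudocounts of 0.5 and 5 and edgeR's quasi-likelihood test on the recovered reads kept the counts at 87. All listed genes were chosen on these same libraries, so keeping a call is not particular to the members. In the main fits limma called 100% of listed genes with the combination, 99.8% with ezetimibe and 100% with fenofibrate. edgeR called 100% with the combination. Shares over all listed genes are not given for the left-out libraries. Smaller sets gave smaller counts by construction: with a mean of at least 50, 49 members (42 higher) with the combination, 4 (3 higher) with ezetimibe and 1 with fenofibrate; among members overlapping no other gene, 15 (14 higher, 1 lower), 1 (higher, 0 lower) and 0; among those matching no other gene at 98%, 48 (42 higher) with the combination and 1 with fenofibrate. DESeq2 with its own size factors called 60 of the 87 (52 higher), against 80.5% of all listed genes (39.2% higher), on a scale shifted by -0.81. Of the 26 named members 1, GOLGA2P7, lost its call there (log2 0.68, DESeq2 adjusted p = 0.0668). The count of pairs that moved the same way was 10 of 15 in each of the 8 alternatives run for it. Members and parents were both listed past 1 in log2 fold change, which left little room for a direction to change. The small pair differences changed sign as libraries were left out, from -0.22 to 0.17 for GOLGA2P10, -0.44 to 0.08 for GOLGA2P7 and -0.09 to 0.29 for GTF2IP1, and the cause was not tested. edgeR and DESeq2 were not run for the single-drug tables, whose whole reads could not be recovered with certainty. The labels do not say that replicate numbers pair the libraries. Correlations of deviations between treated and DMSO libraries of the same number were 0.04, -0.065 and 0.074 with the combination. They were 0.01, -0.028 and 0.089 with ezetimibe and 0.244, 0.079 and -0.13 with fenofibrate. With the replicate block 87, 9 and 2 members were called. Members with few reads are limited by depth: 14 had a mean under 10.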
